A study of Mus musculus with 4 samples.

Results

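The genes of cholesterol and fatty acid synthesis were followed in regulatory T cells sorted 7 days after mice had been immunized with NP-OVA, a hapten-protein conjugate, in CFA, complete Freund's adjuvant. The list held 36 genes: 17 enzymes of sterol synthesis, 6 genes that sense, regulate or carry sterols, 9 genes of fatty acid synthesis and 4 genes of sterol efflux and its nuclear receptors. A gene was measured by the probe that the platform annotation gives exactly 1 symbol, and by its brightest such probe where it had several. In this way 33 of the 36 were measured, among 22180 genes on the arrays. The probes of Idi1 and Scd2 list a further gene each and were left unnamed, and no probe was matched to Nr1h2.

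Follicular regulatory T cells (TFR) were CD4+ cells with PD1, CXCR5 and the YFP of a Foxp3 reporter, and non-TFR cells carried CD4 and the reporter without CXCR5. Each population came from Prdm1fl/flFoxP3YFP-Cre mice (knockout) and from FoxP3YFP-Cre mice (control, labelled WT), so that the control cells carry the Cre reporter too. Foxp3 drives the Cre, which limits the deletion of Prdm1, the gene of the repressor Blimp-1, to cells that express Foxp3. The groups were therefore knockout TFR, control TFR, knockout non-TFR and control non-TFR cells, with 1 Affymetrix Mouse Gene 2.0 ST array each. The labels do not state the age or number of the mice behind an array. No group has a replicate, so no difference below has a test or an error, and all are differences between single arrays.

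Cells build cholesterol from acetyl-CoA through mevalonate, squalene and lanosterol, and build fatty acids from the same acetyl-CoA. Both pathways are driven by the membrane-bound factors SREBP-2 (Srebf2) and SREBP-1 (Srebf1), which Scap carries to the Golgi for cleavage when sterols are low and which Insig proteins hold back when sterols are high. The liver X receptors respond to oxidized sterols and turn on the exporters Abca1 and Abcg1. Proliferating lymphocytes need new membrane, and in regulatory T cells the mevalonate pathway is also known to supply lipids that anchor signalling proteins.

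Values are log2 levels after quantile normalization, and a difference of 1 is 2-fold. Genes whose mean over the 4 arrays lay above 5.91, the median of all genes, counted as expressed. This held for 11090 genes and for 31 of the 33 measured members. Scd1 and Fads2 lay below the limit and are given by their values only. Members at least 1.5-fold apart were counted (0.58 on the log2 scale), and each count is set beside the percentage of all expressed genes that met the same rule. Levels of different genes come from different probes and are not compared.

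Prdm1 had levels of 7.32 in knockout TFR, 8.21 in control TFR, 7.59 in knockout non-TFR and 7.80 in control non-TFR cells. It was 1.85-fold lower in knockout than in control TFR cells and 1.15-fold lower in non-TFR cells. Which part of the transcript the probe covers is not known here, so it does not check the deletion. The T cell and regulatory markers Cd3e, Cd3g, Cd4, Foxp3, Il2ra, Ctla4 and Ikzf2 lay between 9.70 and 13.04 on all arrays. Of 9 measured B cell markers, between 5 and 7 per array lay at or below the limit, Ms4a1 at 3.98 to 4.12 among them. Marker levels were also added on the linear scale and the sum given as log2, which the brightest markers dominate. For the B cell markers this sum was 10.20 in knockout TFR, 9.77 in control TFR, 9.40 in knockout non-TFR and 9.10 in control non-TFR cells. It followed Cd22 (9.27, 8.27, 7.04 and 5.99 in the same order). The median difference over the B cell markers was 0.02 to 0.09 in the 4 comparisons. In TFR against non-TFR cells 5 of the 9 were higher and 4 lower within either genotype. Pax5 was higher by 0.92 in the knockout and 0.64 in the control, while Ms4a1 and Cd79a were lower in both. Blk differed by 0.67 in the knockout and -0.06 in the control, and Cd79b by -0.16 and 0.33. Pax5 (6.10) and Blk (6.11) passed the limit only on the knockout TFR array. Of 9 myeloid markers 7 lay at or below the limit on every array, Lyz2 at 4.08 to 4.46. Their sum was 9.90 in knockout TFR, 9.24 in control TFR, 9.19 in knockout non-TFR and 9.12 in control non-TFR cells. Cd68 stood at 9.17 in knockout TFR cells against 7.97 in control TFR cells. The median difference over the myeloid markers was 0.03 to 0.09. Of 7 markers of NK and CD8 T cells 3 or 4 per array lay at or below the limit. Their sum was 10.43 in knockout TFR, 11.02 in control TFR, 10.64 in knockout non-TFR and 10.51 in control non-TFR cells. Nkg7 was at 9.46, 10.42, 9.56 and 9.12 in that order, and Cd8b1 at 8.73, 8.73, 9.29 and 9.42. Cd8a lay below the limit on all arrays. In TFR against non-TFR cells 4 of the 7 were higher and 3 lower within either genotype. All 7 dendritic cell markers had levels of at most 5.98, and the sum of 5 plasma cell markers ran from 10.46 to 10.74. All 22 measured cell division genes had higher levels in TFR cells within either genotype, by a median of 1.81 in knockout and 2.81 in control mice, and all 22 were higher in knockout than in control non-TFR cells, by a median of 0.70. The cell division list and single markers such as Cd22, Cd68, Nkg7, Cd8b1, Il2ra and Foxp3 thus differ between groups compared below. The single markers were singled out after their values were seen. The part of the cell division genes and of these markers in the differences of lipid genes was not tested. Fewer cells of a kind and less RNA per cell cannot be told apart in such pooled RNA.

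Most of the 33 members differed little between the arrays. The distance between a member's highest and lowest array ran from 0.07 for Srebf1 to 1.33 for Fads2, and it reached 1 only for Fads1 (1.14) and for Fads2, which lies below the expression limit. Sterol synthesis leaned to 1 array. Of its 16 measured enzymes 0 had their highest level in knockout non-TFR cells (20.9% of expressed genes did) and 9 in control non-TFR cells (25.9%). Relative to each gene's mean over the arrays, the median of the 16 was -0.03 in knockout TFR, -0.02 in control TFR, -0.11 in knockout non-TFR and 0.17 in control non-TFR cells. The 8 measured fatty acid genes were instead split by population, at 0.20 in knockout TFR, 0.08 in control TFR and -0.12 in both non-TFR arrays.

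**Figure D1:**
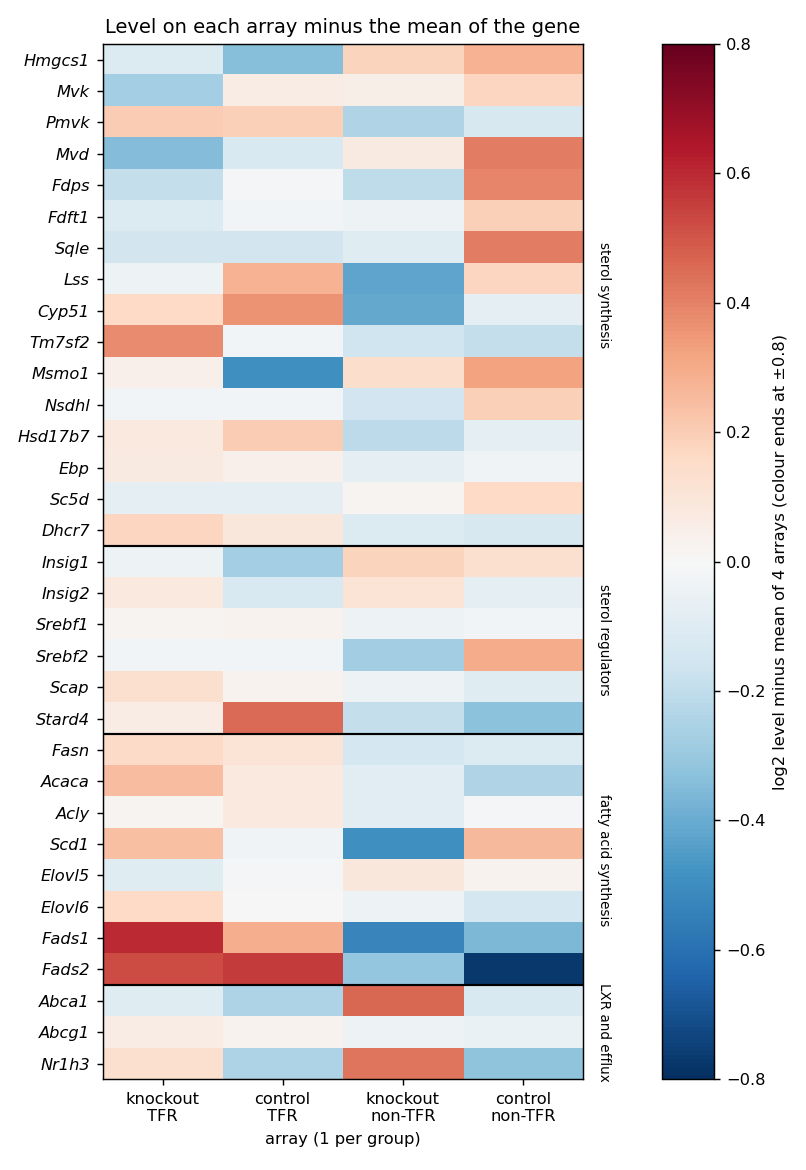
Colour map of the 33 measured genes (rows, in pathway order by group) on the 4 arrays (columns). Colour is the log2 level minus the mean of the gene over the 4 arrays, from blue (lower) to red (higher). Much of the upper sterol block is red in the control non-TFR column, where 9 of 16 enzymes had their highest level, and Fads1 is red in both TFR columns.

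In control mice the first comparison asked which lipid genes separate TFR from non-TFR cells. Sterol enzymes were split: 9 of 16 were lower in TFR cells (47.5% of expressed genes were) and 7 higher (52.4%), with a median difference of -0.16 against 0.02 for expressed genes. Over all 31 expressed members, 2 were at least 1.5-fold lower (5.76% of expressed genes) and 2 at least 1.5-fold higher (10.3%), shares near those of the array as a whole. The lower pair was Msmo1 and Hmgcs1 and the higher pair Stard4 and Fads1. No expressed member was 2-fold apart in this comparison, where 4.13% of expressed genes were 2-fold higher and 1.36% 2-fold lower. Of the expressed members Msmo1 alone lay outside the central 95% of expressed genes, which ran from -0.80 to 1.26.

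The enzymes with lower levels in control TFR cells came from several steps of the pathway. Msmo1, the oxidase that removes methyl groups from lanosterol's products, had levels of 7.58 in knockout TFR, 7.05 in control TFR, 7.68 in knockout non-TFR and 7.86 in control non-TFR cells. The control TFR array stood lowest, with a difference of -0.81 from the control non-TFR array (1.75-fold lower). Hmgcs1, which makes HMG-CoA at the entry of the mevalonate pathway, had 7.27 in knockout TFR, 7.04 in control TFR, 7.56 in knockout non-TFR and 7.66 in control non-TFR cells. Both TFR arrays lay below both non-TFR arrays, and the difference in control mice was -0.62 (1.53-fold lower). Mvd, the decarboxylase that yields isopentenyl diphosphate, had 7.92, 8.15, 8.34 and 8.68 in the same order, again with both TFR arrays lower, and differed by -0.53 in control mice (1.44-fold lower).

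Other steps had a single high array. Squalene epoxidase, encoded by Sqle and a rate-limiting enzyme of the later pathway, had 7.94 in knockout TFR, 7.94 in control TFR, 7.99 in knockout non-TFR and 8.50 in control non-TFR cells. Here the control non-TFR array stood apart and the other arrays were within 0.05 of each other. Fdps, which makes farnesyl diphosphate, had 8.80, 8.98, 8.79 and 9.38 in that order. Fdft1, squalene synthase, had 9.17, 9.26, 9.24 and 9.47. In each of the 3 genes control non-TFR cells had the highest level, and control TFR cells differed from them by -0.41 for Fdps, -0.56 for Sqle and -0.21 for Fdft1. Mvk, the kinase that phosphorylates mevalonate, stood apart at the low end instead, with 6.84 in knockout TFR, 7.17 in control TFR, 7.16 in knockout non-TFR and 7.28 in control non-TFR cells. Sc5d, a desaturase near the end of the pathway, had 9.03, 9.02, 9.12 and 9.26 in that order, with both TFR arrays slightly below both non-TFR arrays.

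Other enzymes leaned the other way. Cyp51, the demethylase that acts on lanosterol, had 8.05 in knockout TFR, 8.25 in control TFR, 7.48 in knockout non-TFR and 7.81 in control non-TFR cells. Both TFR arrays lay above both non-TFR arrays, by 0.57 within the knockout (1.49-fold) and 0.44 within the control (1.36-fold). Pmvk, the phosphomevalonate kinase, was likewise higher in TFR cells, with 8.56, 8.55, 8.12 and 8.23. The reductase Tm7sf2 had 7.89, 7.49, 7.35 and 7.32, and was 0.53 higher in TFR cells of the knockout and 0.16 higher in those of the control. Dhcr7, the reductase of the last step, differed by 0.27 in the knockout and 0.21 in the control, and the isomerase Ebp by 0.14 and 0.07. Hsd17b7, a ketoreductase of methyl group removal, differed by 0.30 and 0.28. Lss, which closes squalene into lanosterol, had 6.21 in knockout TFR, 6.53 in control TFR, 5.83 in knockout non-TFR and 6.42 in control non-TFR cells, and was lowest on the knockout non-TFR array. The pathway thus did not move as one between the populations: members on either side of lanosterol were found both above and below 0.

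**Figure D2:**
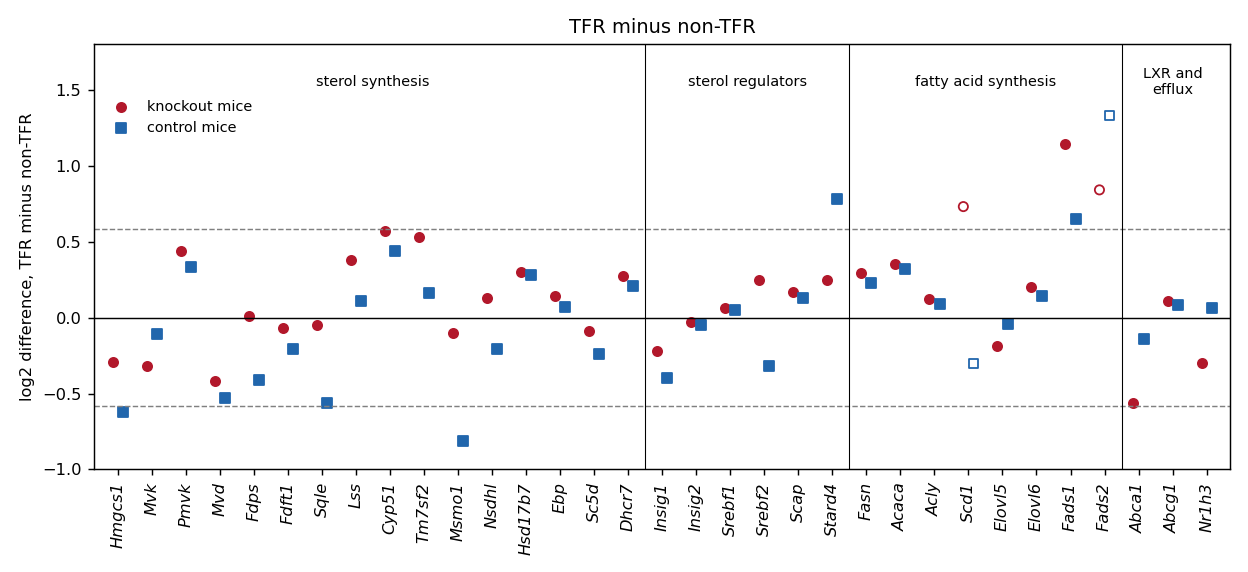
Log2 difference between TFR and non-TFR cells for each gene (horizontal axis), in knockout mice (red circles) and control mice (blue squares), 1 array per group. Dashed lines mark 1.5-fold and open symbols mark genes below the expression limit. Fads1 is above the upper line in both genotypes, while Msmo1 and Hmgcs1 are at -0.10 and -0.29 in knockout mice and below the lower line in control mice.

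In knockout mice the same comparison was made on the other pair of arrays. The sterol median was 0.07, with 9 of 16 enzymes higher in TFR cells (51.6% of expressed genes were) and 7 lower (48.4%). No expressed member was at least 1.5-fold lower (6.2% of expressed genes) and 1 was at least 1.5-fold higher (8.54%), namely Fads1, which was also the only one 2-fold higher (3.03%). None was 2-fold lower (1.37%). Fads1 lay just above the central 95% of expressed genes (-0.82 to 1.09) and the other expressed members inside it. On the values as deposited 13 of 16 sterol enzymes were higher. All genes together were shifted on that scale, by a median of 0.12 in the knockout and 0.11 in the control mice.

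The genotypes shared no array in these comparisons. Of 16 sterol enzymes 7 were higher in TFR cells in both (40.3% of expressed genes), 7 lower in both (36.1%) and 2, Fdps and Nsdhl, differed in sign. Across the 16 genes, which are not independent replicates, the differences in the genotypes correlated at 0.81 (Pearson's r) and 0.83 (Spearman's rho), and across all expressed genes at 0.80 and 0.73. The lower set was Hmgcs1, Mvk, Mvd, Fdft1, Sqle, Msmo1 and Sc5d, and the higher set Pmvk, Lss, Cyp51, Tm7sf2, Hsd17b7, Ebp and Dhcr7. The likeness between genotypes was thus about that of expressed genes at large. The sets depend on small values. In the knockout Fdft1, Sqle, Msmo1 and Sc5d differed by only -0.07, -0.05, -0.10 and -0.09. These signs turned as deposited (0.08, 0.10, 0.05 and 0.05), where all genes together were shifted. Fdps differed by only 0.01 in the knockout.

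Promoter sequences are shown for 6 genes to set the letters near their starts beside these patterns: Msmo1, Hmgcs1 and Mvd, which were lower in TFR than in non-TFR cells, Cyp51, which was higher, Srebf2, described below, and Fads2, a fatty acid gene without CCAAT in this window. They are RefSeq promoters of build GRCm38.p6, 250 bases before to 50 after the start, and 28 of the 36 listed genes had one, 6 of them more than one. Capitals mark, on either strand, the letters TCANNCCAC (a sterol regulatory element, bound by SREBP), CCAAT (bound by NF-Y) and GGGCGG (bound by Sp1). The E-box form TCACGTGA, which SREBP also binds, was searched too and was in none of the 37 promoters of listed genes, against 0.974% of all 32851. No matches of different motifs overlapped.
Msmo1 promoter (chr8:64733529-64733828, minus strand): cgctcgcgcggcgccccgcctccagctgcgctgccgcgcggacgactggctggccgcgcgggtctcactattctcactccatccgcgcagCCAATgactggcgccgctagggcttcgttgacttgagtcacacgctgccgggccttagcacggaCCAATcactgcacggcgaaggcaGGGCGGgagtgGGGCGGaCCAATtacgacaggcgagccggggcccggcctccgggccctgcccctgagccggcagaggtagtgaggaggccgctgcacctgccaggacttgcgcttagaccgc
Hmgcs1 promoter (chr13:119690101-119690400, plus strand): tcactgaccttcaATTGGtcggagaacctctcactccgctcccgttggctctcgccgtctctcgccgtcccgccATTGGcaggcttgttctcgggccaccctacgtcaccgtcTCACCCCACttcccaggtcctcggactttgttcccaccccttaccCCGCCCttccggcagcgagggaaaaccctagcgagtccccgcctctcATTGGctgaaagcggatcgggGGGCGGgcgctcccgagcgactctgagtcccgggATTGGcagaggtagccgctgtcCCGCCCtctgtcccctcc
Mvd promoter (chr8:122443373-122443672, minus strand): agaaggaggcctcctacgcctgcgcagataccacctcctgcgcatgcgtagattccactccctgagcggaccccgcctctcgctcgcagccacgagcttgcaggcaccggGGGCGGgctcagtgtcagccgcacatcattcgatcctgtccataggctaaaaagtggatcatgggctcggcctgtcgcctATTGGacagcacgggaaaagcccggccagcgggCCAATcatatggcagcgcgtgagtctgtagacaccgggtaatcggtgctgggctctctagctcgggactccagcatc
Cyp51 promoter (chr5:4104648-4104947, minus strand): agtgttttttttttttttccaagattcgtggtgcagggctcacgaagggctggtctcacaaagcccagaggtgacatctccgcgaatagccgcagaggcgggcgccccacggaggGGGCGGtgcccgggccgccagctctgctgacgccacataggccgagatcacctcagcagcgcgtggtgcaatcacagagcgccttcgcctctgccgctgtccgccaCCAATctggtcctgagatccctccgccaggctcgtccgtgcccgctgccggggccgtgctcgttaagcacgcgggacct
Srebf2 promoter (chr15:82147019-82147318, plus strand): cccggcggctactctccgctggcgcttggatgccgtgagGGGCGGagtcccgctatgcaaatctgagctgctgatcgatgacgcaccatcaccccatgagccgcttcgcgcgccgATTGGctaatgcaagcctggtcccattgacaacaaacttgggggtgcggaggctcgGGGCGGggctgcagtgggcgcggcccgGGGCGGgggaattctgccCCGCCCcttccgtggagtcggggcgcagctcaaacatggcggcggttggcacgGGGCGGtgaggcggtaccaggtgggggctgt
Fads2 promoter (chr19:10101454-10101753, minus strand): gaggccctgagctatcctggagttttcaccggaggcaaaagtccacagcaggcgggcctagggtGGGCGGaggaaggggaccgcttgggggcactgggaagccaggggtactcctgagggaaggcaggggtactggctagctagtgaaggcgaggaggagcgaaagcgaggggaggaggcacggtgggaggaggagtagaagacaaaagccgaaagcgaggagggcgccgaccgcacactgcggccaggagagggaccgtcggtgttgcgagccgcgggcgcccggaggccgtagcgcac

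The sterol genes shared the CCAAT letters. All 14 sterol synthesis genes with a promoter had CCAAT in at least 1 of their promoters, against 41.1% of all genes, and 13 of 14 had GGGCGG, against 38.2%. Per promoter the shares were 82.4% for either motif, against 37.4% and 35.7% of all promoters. Fatty acid genes had CCAAT in 3 of 6 and GGGCGG in 2 of 6. The sterol element TCANNCCAC was found in Hmgcs1, as TCACCCCAC from -137 to -129 on the strand of the gene, and in the promoters of Acly and Elovl5, against 4.18% of all promoters. Msmo1, which was lower in control TFR cells, and Cyp51, which was higher, both had CCAAT (3 matches and 1). A match of letters is a description and not a site, and no match says only that these letters are not in this window.

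Of the 6 genes that sense, regulate or carry sterols, 0 were at least 1.5-fold apart between populations in the knockout and 1, Stard4, in the control. Srebf2, the gene of the main driver of sterol synthesis, had levels of 10.37 in knockout TFR, 10.37 in control TFR, 10.11 in knockout non-TFR and 10.69 in control non-TFR cells. Control non-TFR cells were highest and knockout non-TFR cells lowest, as for Fdps and Nsdhl, and the TFR arrays lay between them. Between TFR and non-TFR cells Srebf2 thus differed by 0.25 in the knockout and by -0.32 in the control. Stard4, which carries cholesterol through the cytosol, had 7.18, 7.57, 6.93 and 6.79 in the same order, and was 0.78 higher in control TFR than in control non-TFR cells (1.72-fold), against 0.25 in the knockout. Both TFR arrays were above both non-TFR arrays.

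The sensing proteins followed neither of these. Insig1, itself a target of SREBP, had 9.13 in knockout TFR, 8.90 in control TFR, 9.35 in knockout non-TFR and 9.30 in control non-TFR cells, with differences of -0.22 between TFR and non-TFR cells in the knockout and -0.40 in the control. Its relative Insig2 differed between populations by -0.03 and -0.05. Scap, the escort of SREBP, differed by 0.17 and 0.13, and Srebf1 by 0.06 and 0.05. Srebf1 had 8.30, 8.31, 8.24 and 8.26 on the 4 arrays, the narrowest range of any member.

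Fatty acid synthesis genes leaned towards TFR cells. Their median difference was 0.32 in knockout and 0.18 in control mice over the 8 measured, and 0.24 and 0.18 over the 6 expressed, against 0.01 and 0.02 for expressed genes. Of the 6 expressed, 5 were higher in TFR cells of the knockout (51.6% of expressed genes) and 5 in the control (52.4%). These were the same 5 genes, with 40.3% of expressed genes higher in both. Elovl5 was lower in both, but in the control by only -0.04, a sign that turned as deposited (0.03). Fads1, the desaturase that makes arachidonic acid from its precursor, led the 5 higher genes. It had 9.26 in knockout TFR, 8.95 in control TFR, 8.13 in knockout non-TFR and 8.30 in control non-TFR cells. Its level in TFR cells was 2.2-fold higher within the knockout (1.14) and 1.57-fold higher within the control (0.65), and both TFR arrays were above both non-TFR arrays.

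Fads2, the desaturase that acts earlier in the same series of reactions, had 5.73 in knockout TFR, 5.77 in control TFR, 4.90 in knockout non-TFR and 4.44 in control non-TFR cells. The order of populations was that of Fads1, but all 4 values lay below the expression limit and were not shown to be above background, so no fold is given. The core enzymes differed by small amounts in one direction. Fasn, the fatty acid synthase, had 11.05, 11.01, 10.76 and 10.79 in the same order, which is 0.29 higher in TFR cells of the knockout and 0.23 in the control. Acaca, the acetyl-CoA carboxylase that commits carbon to fatty acids, had 8.04, 7.87, 7.70 and 7.55, higher by 0.35 and 0.32. For both genes, as for Fads1, both TFR arrays lay above both non-TFR arrays. The share of all expressed genes with such an order of arrays was not counted, here or for the other members. The order is thus a description of single arrays and not a trait shown to be particular to these genes.

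The remaining fatty acid genes were close between populations. Elovl6, which lengthens palmitate, was 0.20 higher in TFR cells of the knockout and 0.14 in the control. Acly, which makes cytosolic acetyl-CoA from citrate for both pathways, was 0.12 and 0.09 higher. Elovl5, which lengthens polyunsaturated fatty acids, differed by -0.19 and -0.04. Scd1, the stearoyl-CoA desaturase, lay between 3.63 and 4.38 on the 4 arrays, not shown to be above background. Near-identical relatives such as Scd1 and Scd2 can share signal on arrays.

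The contrast of the lists ran the same way in both genotypes. The sterol median minus the fatty acid median was -0.25 between TFR and non-TFR cells of the knockout and -0.34 in the control. Over expressed members it was -0.17 and -0.34. The direction was negative on every scaling tried. It is not tested, and the widest single differences of the lists (-0.42 to 0.57 for sterol genes and -0.19 to 1.14 for fatty acid genes in the knockout) overlap over most of their range.

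**Figure D3:**
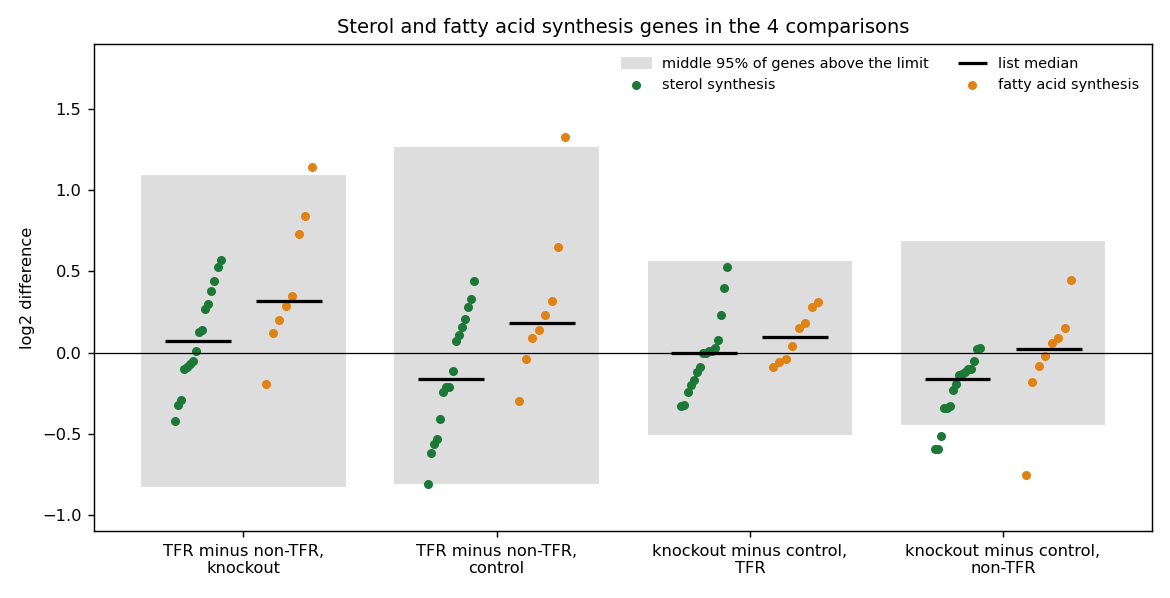
Log2 differences of the 16 sterol synthesis genes (green) and 8 fatty acid synthesis genes (orange) in the 4 comparisons, 1 point per gene, with list medians as black bars. Grey boxes span the middle 95% of expressed genes. The fatty acid median is above the sterol median in each comparison, and nearly all points lie inside the grey boxes.

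The 3 measured efflux and liver X receptor genes were each higher in the knockout within both populations. Abcg1 was higher by only 0.03 in TFR and 0.01 in non-TFR cells. Its sign turned in non-TFR cells as deposited (-0.02) and with quantile normalization over named probes (-0.01). Nr1h3, the liver X receptor alpha gene, had 6.37 in knockout TFR, 5.99 in control TFR, 6.67 in knockout non-TFR and 5.92 in control non-TFR cells, close to the expression limit in the control arrays. Abca1, the exporter that this receptor induces, had 7.20, 7.05, 7.76 and 7.18. For both genes knockout non-TFR cells stood highest, and both knockout arrays lay above both control arrays. For Abca1 this was narrow, at 7.20 in knockout TFR against 7.18 in control non-TFR cells, and it turned with quantile normalization over named probes. On that scale Abca1 was 0.11 higher in knockout than in control TFR cells, and control TFR cells differed by -0.23 from control non-TFR cells. Abcg1, the partner exporter, had 9.14, 9.11, 9.04 and 9.03 and so differed by at most 0.12 among arrays. Between TFR and non-TFR cells Abca1 differed by -0.56 in the knockout (1.48-fold lower) and by -0.14 in the control.

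Between genotypes within TFR cells, the comparison asked whether the lipid genes differ with Prdm1 in the follicular population. They hardly did. The sterol median was 0.00 and the fatty acid median 0.09, against 0.02 for expressed genes. Of the sterol enzymes 9 of 16 were higher (53.8% of expressed genes) and 7 lower (46.1%), and 0 of 31 expressed members were at least 1.5-fold higher or lower, where 2.16% and 1.56% of expressed genes were. At 2-fold the shares of expressed genes were 0.442% and 0.234%, and no member reached it. The sign of the sterol median depended on scaling, at -0.02 as deposited and -0.03 with centring on the 75th percentile. Msmo1 came nearest to the threshold at 0.53 higher in knockout TFR cells (1.44-fold), followed by Tm7sf2 at 0.40. On the lower side Stard4 differed by -0.39, the mevalonate kinase Mvk by -0.33 and the lanosterol synthase Lss by -0.32. The central 95% of expressed genes ran from -0.50 to 0.56 here and held every expressed member.

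Between genotypes within non-TFR cells most sterol enzymes were on the lower side. In knockout non-TFR cells 14 of 16 were lower than in control non-TFR cells, against 44.2% of expressed genes, and 2 were higher, against 55.7%. Their median was -0.16 and that of expressed genes 0.03. As deposited, and with quantile normalization over named probes, all 16 were lower. The largest differences were those of Fdps (-0.59, 1.5-fold lower) and Lss (-0.59), whose level of 5.83 in knockout non-TFR cells, against 6.42 in control non-TFR cells, lay below the expression limit. These were the 2 of 31 expressed members at least 1.5-fold lower, where 1.09% of expressed genes were. Srebf2 missed the threshold narrowly at -0.58 (1.49-fold lower), and Sqle was at -0.51 (1.42-fold lower). These 4 genes lay below the central 95% of expressed genes, which ran from -0.44 to 0.68.

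Most of the other sterol enzymes were lower by smaller amounts. Nsdhl, the dehydrogenase that works with Msmo1, had 9.94 in knockout non-TFR and 10.28 in control non-TFR cells, a difference of -0.34. Mvd also differed by -0.34, Cyp51 by -0.33 and Fdft1 by -0.23. The exceptions among the enzymes were Tm7sf2 at 0.03 and Dhcr7 at 0.02. Of the 6 genes that sense, regulate or carry sterols 4 were higher and 2 lower, with a median of 0.06. Insig2 was at 0.18, Stard4 at 0.14, Scap at 0.06 and Insig1 at 0.05, against Srebf2 at -0.58 and Srebf1 at -0.02. Fatty acid genes did not share the leaning of the sterol enzymes, with 3 of the 6 expressed higher, 3 lower and a median of 0.02. The sterol minus fatty acid median was -0.18.

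Of the efflux and liver X receptor genes, Nr1h3 and Abca1 were on the other side in the same pair of arrays. Nr1h3 was 0.74 higher in knockout than in control non-TFR cells (1.68-fold), above that central range, and was the 1 of 31 expressed members at least 1.5-fold higher, where 3.69% of expressed genes were. Abca1 was 0.58 higher (1.49-fold), just under the threshold, and Abcg1 0.01 higher. No member was 2-fold apart, against 0.775% of expressed genes higher and 0.126% lower. In TFR cells the knockout minus control differences of Nr1h3 and Abca1 were 0.39 and 0.15.

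**Figure D4:**
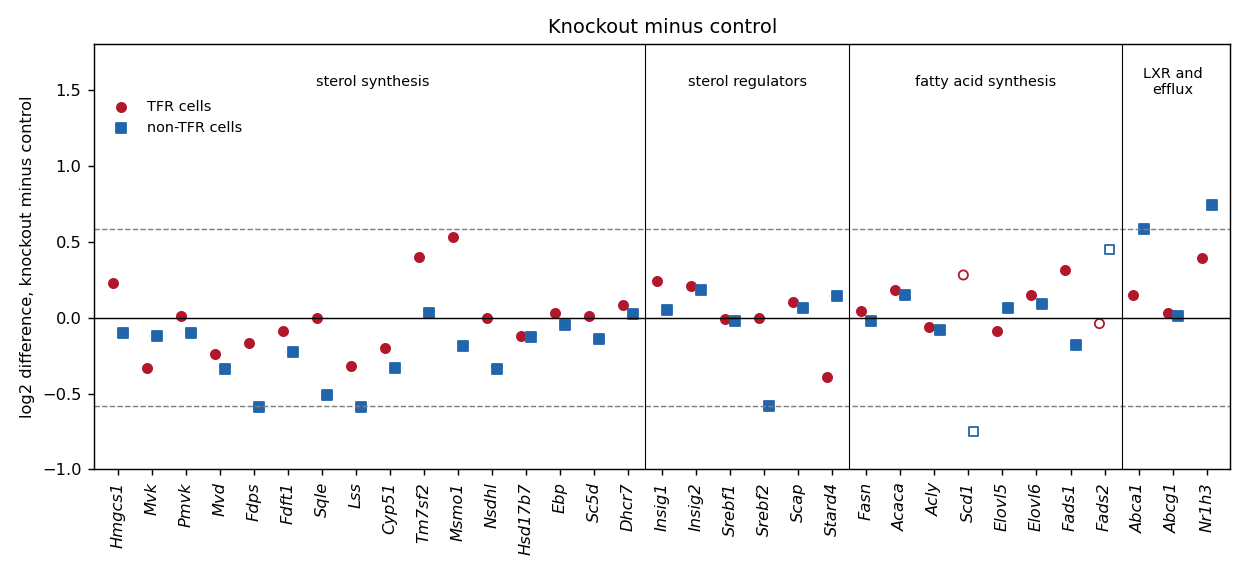
Log2 difference between knockout and control cells for each gene (horizontal axis), in TFR cells (red circles) and non-TFR cells (blue squares), 1 array per group. Dashed lines mark 1.5-fold and open symbols mark genes below the expression limit. In non-TFR cells 14 of 16 sterol synthesis genes lie below 0, and Nr1h3 and Abca1 are the highest filled symbols.

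Whether the population difference itself depended on genotype was described by subtracting the control TFR minus non-TFR difference from the knockout one. This value was above 0 for 15 of 16 sterol enzymes, against 47.6% of expressed genes, with a median of 0.15 against -0.01. Msmo1 had 0.71, the 1 sterol enzyme at or above 1.5-fold, where 2.37% of expressed genes were, and 0 were 1.5-fold on the negative side, where 4.08% were. Sqle had 0.51, Fdps 0.42 and Srebf2 0.57, while Mvk had -0.21. The count was 15 of 16 under the scalings tried, except 14 of 16 with centring on the 75th percentile. All 4 arrays enter this value, and the control non-TFR array enters it as well as each comparison in which most sterol enzymes were lower. Cell division genes had a median of -0.75 in the same subtraction, in the opposite direction.

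Further genes of the same pathways were taken from a list of 57, chosen with earlier results of these data known. Of the 57, 51 were measured and 35 expressed. In TFR against non-TFR cells, 4 of the 35 passed 1.5-fold upward and 2 downward in knockout mice, and 4 upward and 5 downward in control mice. Of all expressed genes 8.54% and 6.2% did so in the knockout, and 10.3% and 5.76% in the control. The median difference of the 35 was 0.09 in the knockout and 0.13 in the control, against 0.01 and 0.02 for expressed genes. By pathway it was 0.03 and 0.11 for the 16 sterol genes among them, and 0.16 and 0.25 for the 19 fatty acid genes. The sterol genes of this list leaned less to lower levels in knockout non-TFR cells than the sterol enzymes did. Against control non-TFR cells 7 of the 16 were higher (55.7% of expressed genes) and 9 lower (44.2%). Their median was -0.01, against 0.03 for expressed genes. Acss2, which makes cytosolic acetyl-CoA from acetate and is a known SREBP target, had levels of 6.59 in knockout TFR, 6.78 in control TFR, 7.74 in knockout non-TFR and 8.14 in control non-TFR cells. The TFR minus non-TFR difference was -1.15 in the knockout and -1.35 in the control, more than 2-fold in each. Acss1, its mitochondrial relative, differed by -0.96 in control mice. Hacd3, a dehydratase of fatty acid elongation, had 9.81, 9.19, 8.60 and 8.01 in the same order, higher in TFR cells by 1.21 in the knockout and 1.18 in the control.

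Hacd3 also led the genotype comparisons of this list, at 0.62 higher in knockout TFR cells and 0.59 higher in knockout non-TFR cells, so that each knockout array was above the control array of its population. No other gene of the list was 1.5-fold apart between genotypes in either population. Hacd3 was thus 1 of 35 expressed genes of the list higher in each population, with 0 lower. Of all expressed genes 2.16% were 1.5-fold higher and 1.56% lower in TFR cells, and 3.69% and 1.09% in non-TFR cells. Mecr, of mitochondrial fatty acid synthesis, was 0.74 higher in TFR cells of the knockout. Ggps1, which makes the lipid used to anchor small GTPases, was 0.43 higher in knockout than in control TFR cells, and Mbtps2, a protease that releases SREBP, 0.37 higher. In non-TFR cells Gpam, the first enzyme of glycerolipid synthesis, was 0.46 higher in the knockout and Mid1ip1, a partner of acetyl-CoA carboxylase, 0.44 higher.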

How the data were processed

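Per the labels, RNA of sorted cells was put on Affymetrix Mouse Gene 2.0 ST arrays, and the 4 samples were assigned to 4 groups by title. The deposited table holds log2 values made by the authors, 1 per transcript cluster (probe) and array, with a log2 scale inferred from their range of 2.23 to 13.8. The submitters' processing notes name MAS5 but not what it did. How background was corrected and probes were summarized is not given in the sources used here, and the table has no detection calls.

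All 41345 probes were quantile normalized with limma 3.58.1 in R 4.3.3, since deposited medians ran from 5.58 to 5.69. A true shift shared by most genes would be lost with it. No pseudocount was used. The platform annotation named 23521 probes with 1 gene, of which 23328 matched the RefSeq gene table by Entrez identifier with no symbol changed. The brightest probe per gene was kept (1082 genes had several), leaving 22180 genes. Of the members, 33 of 36 were measured.

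With 1 array per group there was no test, and precision is limited by the number of arrays. Differences, list medians and counts were computed in Python 3.11.15, and these steps were tested on simulated data. Alternatives covered scaling, probes, filters and summary. All 36 members could be named, and of other pathway genes the 3 with the largest difference per comparison. The members and lists were chosen with earlier results of these data known.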

Additional observations from a re-analysis of the deposited data

Results flagged for a closer look

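Msmo1 had opposite signs in the genotype comparisons, at 0.53 higher in knockout TFR cells and -0.19 in non-TFR cells. Each is a difference of single arrays, and the difference between them was not tested.

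The median of the 3 measured efflux and liver X receptor genes had opposite signs in the population comparisons, at -0.30 for TFR minus non-TFR in knockout and 0.06 in control mice. This too was not tested.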

How the results depend on the processing

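Of 140 list medians, list contrasts and member counts recomputed under an alternative, 125 stayed close to the value reported and 15 moved. None of the list medians beyond 0.1 changed sign. Of 660 recomputed differences of single members 607 moved by at most 0.1, and 52 of the other 53 belonged to the values as deposited in the population comparisons, where all genes shift by 0.11 or 0.12. On that scale the sterol median was 0.20 in the knockout and -0.04 in the control population comparison, the fatty acid median in the knockout was 0.43, and members at least 1.5-fold apart numbered 3 higher in the knockout and 1 lower in the control. As means in place of medians, fatty acid genes had 0.43 in the knockout and 0.30 in the control. Quantile normalization over named probes gave 1 lower member in the knockout and 4 in the control population comparison. Above the 75th percentile of expression there were 1 higher and 0 lower in the control population comparison, and 0 higher and 1 lower between genotypes in non-TFR cells. With centring on the 75th percentile 1 was lower in that non-TFR pair, and without a filter 3 were higher in the knockout population comparison. Several members sit at the 1.5-fold line, so small counts change with the scaling. No paired analysis was possible because each group has 1 array. Dim genes have no detection call, which limits Scd1, Fads2 and the lowest values of Lss and Nr1h3.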

Other observations

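Fads1, Fads2 and Fads3 lie next to each other in the RefSeq gene table, with 0 protein-coding genes starting between neighbours. Fads1 was expressed, while Fads2 (4.44 to 5.77) and Fads3 (5.17 to 5.44) lay below the expression limit on all 4 arrays, so that no pattern over the neighbours can be read. These genes were set side by side after their values were seen.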
